A study of Homo sapiens with 6 samples.

Results

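The genes described here are HMGA1 and HMGA2, the RNA-binding protein gene LIN28B, and the 3 members of the IGF2BP family, IGF2BP1, IGF2BP2 and IGF2BP3. They are 6 of the 24294 loci in the deposited expression table, found by symbol. They were chosen with their levels in this comparison already known, so those levels are a description, and where genes past a threshold are counted, the count is not a test of them. RNA sequencing was done on MCF12A cells stably over-expressing miR-424, a microRNA of the miR-15/16 seed family, and on MCF12A cells with an empty vector (EV), each with 3 samples after 48 hours of growth. MCF12A is labelled as a cancer line, although it is generally described as mammary epithelium that was immortalized and does not form tumours. The promoter of the construct is not named in the labels, nor is it said whether the samples of a group are separate lines, so the spread between samples may be technical.

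HMGA proteins are small chromatin proteins whose AT-hooks bind the minor groove of AT-rich DNA. HMGA1 stays on in many dividing cells, while HMGA2 is an embryonic gene that is low in most adult tissues and returns in many tumours. LIN28B binds the precursors of the let-7 microRNAs and blocks their maturation, and the IGF2BP proteins bind mRNAs, among them m6A-modified ones, and affect their stability, localization and translation. Mature let-7 in turn represses HMGA2, LIN28B and the IGF2BP mRNAs through sites in their 3' UTRs, and several of these genes are called oncofetal, meaning high in the fetus and in tumours and low in the adult.

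Mature miR-424, which the construct over-expresses, miR-16, miR-503 and let-7 microRNAs are shown with the seed, bases 2 to 8, in capitals (RefSeq, GRCh38.p14). miR-15a, miR-15b and miR-16 carry the same seed as miR-424. miR-503, transcribed beside miR-424, has a seed that ends in another base. All 9 let-7 family members looked up, from let-7a to let-7i and miR-98, share 1 seed, of which let-7a and let-7d are shown.
hsa-miR-424-5p: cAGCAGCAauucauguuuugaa
hsa-miR-16-5p: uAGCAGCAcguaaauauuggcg
hsa-miR-503-5p: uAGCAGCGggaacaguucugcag
hsa-let-7a-5p: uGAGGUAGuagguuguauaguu
hsa-let-7d-5p: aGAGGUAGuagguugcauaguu

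The 3' UTRs were searched on the sense strand for the 7 bases complementary to each seed, CTACCTC for let-7 and TGCTGCT for miR-424, in the longest annotated 3' UTR of each gene (GENCODE 29, GRCh38). All 6 genes had at least 1 let-7 match, 15 in all, of which 8 were followed by A. HMGA1, HMGA2 and LIN28B also had a miR-424 match, 4 in all. Matches are shown in 25-base windows with the 7 bases in capitals, at least 1 for each of the 4 expressed genes, together with the miR-424 matches of HMGA1 and HMGA2. These are the letters that both microRNA families would pair with, and a match does not show binding.
HMGA2 let-7 match 1, chr12:65963298-65963322 (+): gccaacgttcgatttCTACCTCagc
HMGA2 let-7 match 4, chr12:65965798-65965822 (+): aatcaaaacacactaCTACCTCtta
HMGA2 miR-424 match, chr12:65964579-65964603 (+): ctagtacttattacaTGCTGCTata
HMGA1 let-7 match, chr6:34245829-34245853 (+): tcctctgttcacaaaCTACCTCtgg
HMGA1 miR-424 match 2, chr6:34245891-34245915 (+): gacatccgtcattgcTGCTGCTacc
IGF2BP2 let-7 match, chr3:185644218-185644242 (-): aacacacagaagaagCTACCTCagg
IGF2BP3 let-7 match, chr7:23311793-23311817 (-): tgcatttttactcaaCTACCTCagg

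The genes differed in the number of matches and in the length of the 3' UTR. HMGA2, with a 3' UTR of 3003 nt, had 4 let-7 matches and 1 miR-424 match, which lay at base 1302, close to the let-7 match at base 1256. LIN28B (4549 nt) had 4 let-7 matches and 1 miR-424 match, and IGF2BP1 (6206 nt) had 4 let-7 matches and no miR-424 match. HMGA1 (1347 nt) had 1 let-7 match and 2 miR-424 matches that overlap within a run of TGCTGCT repeats, at bases 1019 and 1022. IGF2BP2 (1792 nt) and IGF2BP3 (2153 nt) each had 1 let-7 match and no miR-424 match.

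Set against the whole transcriptome, let-7 matches were uncommon and miR-424 matches were not. Of the 10487 tested loci with a 3' UTR of at least 30 nt, 10.3% held a let-7 match and 24.0% a miR-424 match. Among 3' UTRs of a length like that of HMGA2 (the shorter of the pair at least 0.8 times the longer) the shares were 14.4% for let-7 and 38.4% for miR-424. No tested locus had more than the 4 let-7 matches of HMGA2, and HIC2, a transcriptional repressor, and SMC1A, a cohesin subunit, were the other 2 with as many.

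**Figure D1:**
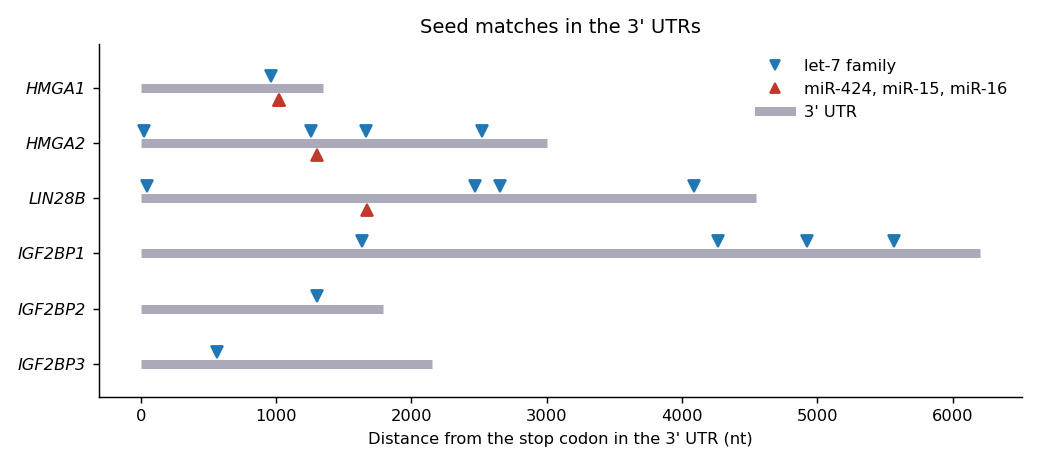
Positions of seed matches in the longest 3' UTR of each gene. The x axis is the distance from the stop codon in nt, grey bars are the 3' UTRs, downward marks are let-7 matches (15 in all) and upward marks are matches to the seed of miR-424, miR-15 and miR-16 (4 in all, the 2 of HMGA1 overlapping).

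The construct was read from MGC16121/MIR424, the transcript from which the microRNA is processed (chrX:133677406-133680741, hg19). Its FPKM (fragments scaled to transcript length and sequencing depth) was 106.6, 106.3 and 223.6 in miR-424 replicates 1, 2 and 3, against 0.989, 1.27 and 1.23 in the EV replicates of those numbers. This is a log2 change of 5.99 ± 0.28 (SE; limma, adjusted p = 6.68e-04). miR-424 replicate 3 stood apart, both in this locus and in the median of all 11574 tested loci, which lay 0.11 below the EV mean on the log2(FPKM + 1) scale, against 0.017 and 0.019 below for replicates 1 and 2. Results are therefore also given without it. The epithelial keratins KRT8 (150.0 to 175.7 FPKM) and KRT18 (82.1 to 91.4 FPKM) were abundant in all 6 libraries. EPCAM, also in the epithelial list, was at 2.54 to 3.23 FPKM. The mesenchymal markers VIM and CDH2 were at 957.1 to 1045.5 and 26.4 to 28.8 FPKM. The markers thus do not point to 1 cell state. The epithelial cadherin CDH1 (at most 0.0387 FPKM) and the basal factor TP63 (at most 0.192 FPKM) were near 0, and the leukocyte marker PTPRC and the endothelial marker CDH5 were at most 0.0679 and 0.0041 FPKM. The leukocyte list was not low throughout, since its member CD68 was at 52.7 to 58.5 FPKM. Some markers differed between the groups without overlap, in opposite directions within the basal list. Of the 4 basal markers, KRT5 was at 37.5 to 43.9 FPKM in miR-424 cells and 61.1 to 65.3 FPKM in EV cells, KRT14 was at 3.55 to 5.14 FPKM in miR-424 cells and 1.99 to 2.46 FPKM in EV cells, and KRT17 and TP63 overlapped. Their sum was 48.5 to 58.4 FPKM in miR-424 cells and 70.0 to 74.8 FPKM in EV cells. Of the 3 mesenchymal markers FN1 alone did not overlap, at 415.6 to 427.2 FPKM in miR-424 cells and 262.8 to 267.5 FPKM in EV cells, while VIM and CDH2 did, and the sum was 1416 to 1499 FPKM in miR-424 cells and 1249 to 1275 FPKM in EV cells. The 5 fibroblast markers summed to 163.5 to 184.8 FPKM in miR-424 cells and 155.6 to 165.6 FPKM in EV cells, 2 of the 5 without overlap, with COL1A2 and PDGFRA at most 0.0342 FPKM. The 2 were COL1A1 and LUM, which was at most 0.206 FPKM, while DCN overlapped at 117.6 to 137.6 FPKM. Groups failed to overlap at 33.5% of tested loci and at 26.8% of all loci with a value above 0, so nothing is read from these marker counts. The part of the marker differences in the levels below was not tested.

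Of the 6 genes, 4 were expressed above the level at which loci were tested, a mean of 1 FPKM. HMGA1 was the most abundant by far, ranking at place 123 of the 24294 loci by mean FPKM. HMGA2, IGF2BP2 and IGF2BP3 followed at places 1363, 1490 and 2138, and their order changed with the group: HMGA2 was above IGF2BP2 in each miR-424 library and below it in each EV library. IGF2BP1 and LIN28B were far lower. The label of a LIN28 circuit thus rests here on the HMGA genes, IGF2BP2 and IGF2BP3, since LIN28B itself was at or near 0.

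HMGA2 had the largest log2 change of the 4 tested genes. It was at 70.0, 73.5 and 56.7 FPKM in the 3 miR-424 libraries, against 39.1, 39.9 and 39.7 FPKM in the 3 EV libraries (chr12:66151799-66360071, hg19). All 3 miR-424 libraries lay above all 3 EV libraries, and the lowest of the miR-424 libraries was replicate 3. The means were 66.7 ± 8.88 FPKM in miR-424 cells and 39.5 ± 0.385 FPKM in EV cells (SD, n = 3 each), a ratio of 1.69. The log2 change was 0.73 ± 0.09 (SE), which is the 19th highest of the 11574 tested loci. In bulk RNA, more cells with the transcript and more transcript per cell cannot be told apart.

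Of the 4 tested genes, HMGA2 alone was past the adjusted p threshold of 0.05 as higher in miR-424 cells. Of all tested loci, 7.56% were past it, 1.24% as higher and 6.32% as lower. The gene was chosen on this contrast, so nothing is read from that count. Without miR-424 replicate 3 the log2 change of HMGA2 was 0.84, and without replicate 1 or 2 it was 0.69 or 0.66. Without EV replicate 1, 2 or 3 it was 0.72, 0.74 or 0.73, and HMGA2 was then no longer past the threshold. Most calls over all loci were lost in these fits too. With all libraries 144 loci were higher and 731 lower, and without 1 EV library 31 to 35 were higher and 77 to 84 lower. Groups that do not overlap were common in these libraries, at 33.5% of tested loci in either direction and 6.59% as higher in miR-424 cells.

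HMGA1, the other AT-hook gene, had overlapping groups. It was at 490.1, 478.4 and 435.2 FPKM in the 3 miR-424 libraries, against 484.6, 476.4 and 486.6 FPKM in the 3 EV libraries (chr6:34204576-34214008, hg19). The first 2 miR-424 libraries fell within or just above the EV range, and replicate 3 lay below it. The means were 468 ± 28.9 FPKM in miR-424 cells and 483 ± 5.40 FPKM in EV cells (SD, n = 3 each), a log2 change of -0.046 ± 0.050 (SE). The sign of this value is not fixed: it was 0.023 with median-of-ratios scaling and 0.0051 without miR-424 replicate 3. HMGA1 has 8 processed copies in GENCODE 29, and the sources used here do not say how reads shared with them were counted.

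The ratio of the HMGA genes was higher in every miR-424 library than in any EV library. HMGA2 stood at 0.143, 0.154 and 0.130 of the HMGA1 level in the 3 miR-424 libraries, against 0.0807, 0.0837 and 0.0815 in the 3 EV libraries. A ratio within a library does not depend on the scaling of that library as a whole. Since HMGA2 was chosen for its level, the ratio is a description too.

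IGF2BP2 and IGF2BP3, which bind mRNAs in the cytoplasm, split the miR-424 libraries. IGF2BP2 was at 55.5, 54.9 and 40.0 FPKM in the 3 miR-424 libraries, against 49.1, 49.0 and 48.8 FPKM in the 3 EV libraries (chr3:185361526-185542827, hg19). Replicates 1 and 2 lay above the EV range and replicate 3 below it, so the groups overlapped. The means were 50.1 ± 8.81 FPKM in miR-424 cells and 49.0 ± 0.151 FPKM in EV cells (SD, n = 3 each), and the log2 change was 0.019 ± 0.12 (SE).

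IGF2BP3 followed the same course. It was at 41.4, 41.5 and 28.2 FPKM in the 3 miR-424 libraries, against 33.9, 33.1 and 32.8 FPKM in the 3 EV libraries (chr7:23349827-23509995, hg19). Again 2 miR-424 libraries lay above the EV range and replicate 3 below it. The means were 37.0 ± 7.67 FPKM in miR-424 cells and 33.3 ± 0.599 FPKM in EV cells (SD, n = 3 each), a log2 change of 0.13 ± 0.14 (SE).

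For this pair 1 library decided the value. Without miR-424 replicate 3 the log2 change was 0.17 for IGF2BP2 and 0.31 for IGF2BP3, and both, with HMGA2, were then past the threshold as higher. That is 3 of the 4 tested genes, beside 14.9% of all tested loci higher and 22.2% lower in the same fit. Since the genes were chosen on this contrast, nothing is read from this count either. Without miR-424 replicate 1 or 2 the log2 change of IGF2BP2 was -0.061 or -0.054, and that of IGF2BP3 was 0.038 or 0.037.

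In miR-424 cells the ratio of the paralogs varied less than either level. IGF2BP3 stood at 0.746, 0.755 and 0.705 of IGF2BP2 in the 3 miR-424 libraries, against 0.692, 0.675 and 0.672 in the 3 EV libraries. The lowest miR-424 value lay just above the highest EV value. HMGA2 over IGF2BP2 was 1.26, 1.34 and 1.42 in the 3 miR-424 libraries, against 0.797, 0.813 and 0.813 in the 3 EV libraries, so replicate 3, lowest in the level of HMGA2, was highest in this ratio.

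**Figure D2:**
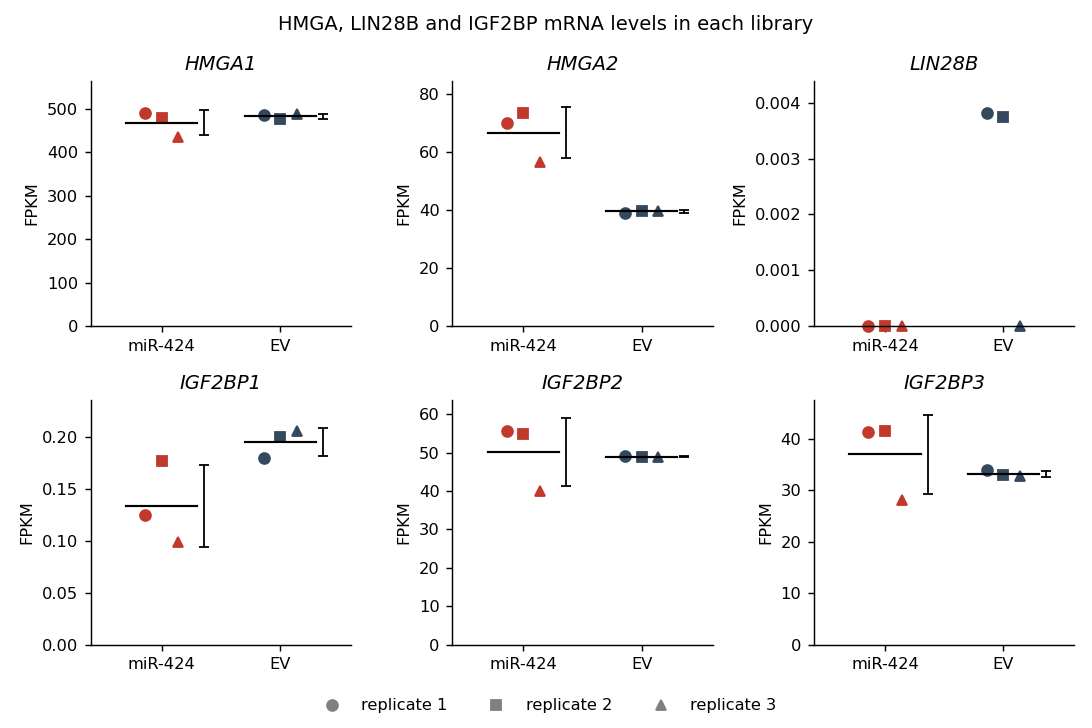
FPKM of each of the 6 genes in each library, miR-424 on the left and EV on the right of each panel. Symbols mark the replicate number, horizontal lines the mean and brackets the SD of 3 libraries, which are left out for LIN28B, listed at 0 in 4 of 6 libraries. HMGA2 is the expressed gene whose groups do not overlap, with all miR-424 libraries at 56.7 FPKM or more and all EV libraries at 39.9 FPKM or less.

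**Figure D3:**
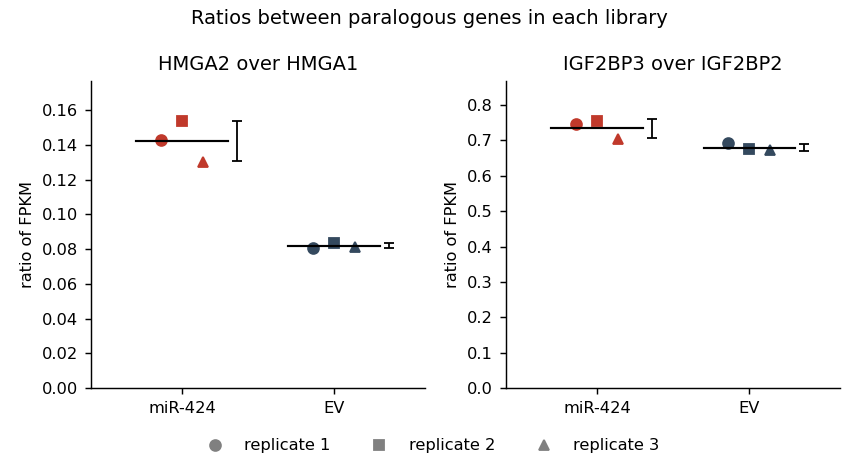
Ratio of HMGA2 to HMGA1 (left) and of IGF2BP3 to IGF2BP2 (right) within each library, in FPKM over FPKM. Lines are means and brackets the SD of 3 libraries, and the HMGA ratio is 0.142 on average in miR-424 cells and 0.0820 in EV cells.

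The drop of miR-424 replicate 3 differed in size between the genes. On the log2(FPKM + 1) scale replicate 3 lay below the mean of replicates 1 and 2 by 0.15 for HMGA1 and by 0.33 for HMGA2. For IGF2BP2 it lay below by 0.46 and for IGF2BP3 by 0.54. The median over all tested loci was -0.090, and 10% of loci were at -0.34 or lower. The share of loci with a drop at least as large was 37.2% for HMGA1, 10.8% for HMGA2, 3.16% for IGF2BP2 and 1.49% for IGF2BP3, so the IGF2BP genes were among the loci that lay lowest in that library. The part that this library plays in the IGF2BP values beyond these figures was not tested.

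**Figure D4:**
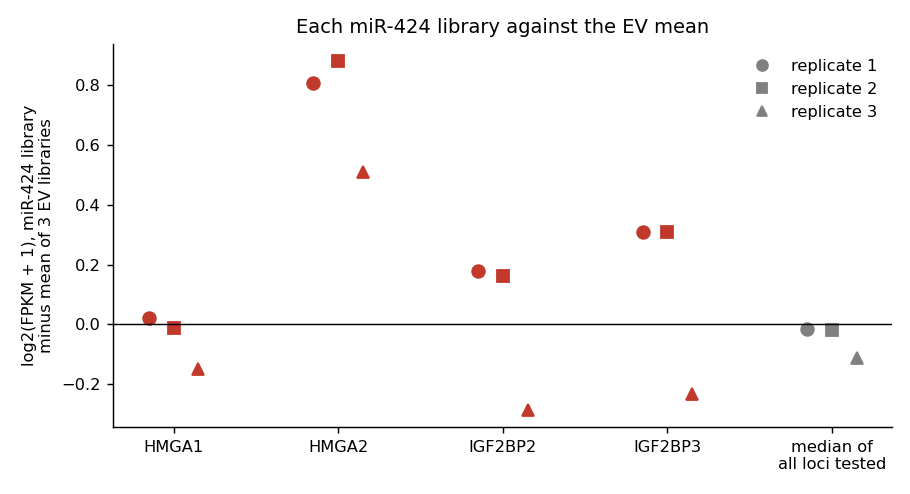
Each miR-424 library minus the mean of the 3 EV libraries, in log2(FPKM + 1), for the 4 expressed genes and, in grey, for the median of all tested loci. HMGA2 is above 0 in all 3 libraries (0.81, 0.88 and 0.51), while IGF2BP2 and IGF2BP3 are above 0 in replicates 1 and 2 and below 0 in replicate 3.

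IGF2BP1 and LIN28B were below the level that could be tested. IGF2BP1 was at 0.125, 0.177 and 0.0992 FPKM in the 3 miR-424 libraries, against 0.180, 0.201 and 0.206 FPKM in the 3 EV libraries (chr17:47074773-47133507, hg19). All miR-424 values lay below all EV values, but groups failed to overlap at 21.1% of the 1576 loci with a mean between 0.1 and 0.3 FPKM and at 26.8% of all loci with a value above 0. LIN28B was listed at 0 in EV replicate 3 as in every miR-424 library, and stood at 0.00382 and 0.00374 FPKM in the EV replicates numbered 1 and 2 (chr6:105404922-105531207, hg19). Depth is not given with FPKM values, so no limit can be set on how low either gene was.

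The pattern of a gene over the 6 libraries can be set beside that of others, as a description over 6 libraries that fall into 2 groups. Of 8301 loci averaging 5 FPKM or more, 135 had a Pearson r with HMGA2 of 0.95 or more. The closest were F3, the coagulation initiator tissue factor (0.998), the ETS transcription factor gene ETV1 (0.997) and the nucleotide sugar transporter gene SLC35B4 (0.997). F3 was at 181.9, 182.7 and 147.8 FPKM in the 3 miR-424 libraries, against 99.2, 102.8 and 101.3 FPKM in the 3 EV libraries, so that it too was high in all miR-424 libraries and least so in replicate 3.

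The other genes resembled a larger set of loci. For HMGA1 the count at 0.95 or more was 435, led by LRRFIP1, PCYOX1 and PLSCR1. For IGF2BP2 it was 754, led by SSX2IP, MTMR6 and DDX20, and for IGF2BP3 it was 527, led by LYSMD3, GNPAT and SKIL. IGF2BP2 and IGF2BP3 had an r of 0.959 with each other, while HMGA1 and HMGA2 had an r of -0.13.

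Loci within 100 kb of the 6 genes were also followed. Of 21 such loci, 13 were tested, and 0 were higher and 1 was lower in miR-424 cells (limma), with 2 higher and 1 lower at an unadjusted p under 0.05. Of all tested loci 7.56% were past the threshold. The 1 that fell was BVES, beside LIN28B, at 2.42, 2.18 and 1.86 FPKM in the 3 miR-424 libraries, against 3.25, 2.98 and 3.12 FPKM in the 3 EV libraries (adjusted p = 0.028). RPSAP52 is a transcript antisense to HMGA2, listed at the same locus. It was at 2.26, 2.61 and 2.92 FPKM in the 3 miR-424 libraries, against 2.11, 1.94 and 1.86 FPKM in the 3 EV libraries, a log2 change of 0.27 ± 0.08 (SE, limma adjusted p = 0.083). The sources used here do not say whether counting used strand, so reads of RPSAP52 and HMGA2 may not be told apart. TRA2A, a splicing factor gene next to IGF2BP3, was at 30.7, 31.1 and 20.4 FPKM in the 3 miR-424 libraries, against 29.1, 28.5 and 29.3 FPKM in the 3 EV libraries, and thus low in the same library as IGF2BP3. C7orf30 and GPNMB, also near IGF2BP3, were not low in miR-424 replicate 3. There C7orf30 was at 53.7 FPKM, against 46.4 to 46.7 FPKM in EV cells. GPNMB was at 1.27 FPKM there, against 0.819 to 0.939 FPKM in EV cells.

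Around the 6 genes, 8 lists with 121 genes were followed, of which 91 loci were tested. In miR-424 cells 1 locus rose (1.10%) and 6 fell (6.59%) by limma, beside 1.24% and 6.32% of all tested loci. The median log2 change over the 91 loci was -0.055 and that over all tested loci -0.047. The counts and the median of these loci thus lay near those of the background. Counts of single lists without miR-424 replicate 3 stand beside 14.9% of all tested loci higher and 22.2% lower. No share over all loci was taken at an unadjusted p under 0.05. Nothing is therefore read from those counts, here or for the neighbouring loci. Leaving out an EV library removed most calls over all loci, as given with HMGA2.

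The machinery that makes let-7 showed no locus past the threshold. Of the 15 tested genes for let-7 maturation, among them the nucleases DROSHA and DICER1 and the Argonaute proteins, 0 rose and 0 fell by limma, with 2 at an unadjusted p under 0.05. The median log2 change was -0.047, and values ran from -0.30 to 0.095. HNRNPA1, which binds let-7 precursors, was at 536 ± 28.2 FPKM in miR-424 cells and 572 ± 14.96 FPKM in EV cells (SD, n = 3 each). KHSRP, which promotes let-7 processing, was at 68.6 ± 10.9 FPKM in miR-424 cells and 72.6 ± 0.556 FPKM in EV cells. LIN28A, the paralog of LIN28B, lay between 0.0709 and 0.0865 FPKM over the 6 libraries, and TRIM71, a let-7 target of stem cells, was listed at 0 in all 6. Without miR-424 replicate 3, 2 of the maturation genes rose and 1 fell.

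Mature let-7 itself was not measured, because mRNA libraries do not hold it. Of 17 let-7 precursor and host genes, 5 loci were tested, with 0 past the threshold in limma and 2 at an unadjusted p under 0.05. The median log2 change was -0.11, and values ran from -0.81 to 0.22. The lowest was MIRLET7BHG, a merged locus with the host transcript of let-7a-3 and let-7b, named after its values were seen. It was at 1.82, 3.83 and 1.71 FPKM in the 3 miR-424 libraries, against 5.35, 4.33 and 4.903 FPKM in the 3 EV libraries. These groups do not overlap, as at 33.5% of tested loci (log2 change -0.81 ± 0.22, SE, limma adjusted p = 0.074). The highest was MIR100HG, also named after its values were seen. It was at 13.2, 13.3 and 9.65 FPKM in the 3 miR-424 libraries, against 10.2, 10.3 and 9.81 FPKM in the 3 EV libraries. Its groups overlap (log2 change 0.22 ± 0.11, SE, limma adjusted p = 0.30). WDR82, whose gene holds let-7g, was at 37.2 ± 0.307 FPKM in miR-424 cells and 40.2 ± 0.618 FPKM in EV cells (SD, n = 3 each; limma adjusted p = 0.11). HUWE1, which holds let-7f-2 and miR-98, was at 18.2 ± 0.184 FPKM in miR-424 cells and 17.5 ± 0.293 FPKM in EV cells. Without miR-424 replicate 3, 1 of the 5 loci rose and 2 fell, among them WDR82 (adjusted p = 0.011).

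Other mRNAs reported as let-7 targets were followed next. Of 21 tested, 0 rose and 3 fell by limma (4 at an unadjusted p under 0.05), beside 1.24% and 6.32% of all tested loci. The median log2 change was -0.014. Without miR-424 replicate 3, 5 rose and 5 fell, beside 14.9% and 22.2% of all tested loci. The 3 that fell with all libraries act in the cell cycle. Their own miR-424 matches are not listed here, and the cause of their fall was not tested. Cyclin D1 (CCND1) was at 64.6 ± 1.28 FPKM in miR-424 cells and 82.3 ± 1.502 FPKM in EV cells (SD, n = 3 each), a log2 change of -0.34 ± 0.04 (SE, limma adjusted p = 0.0047). The phosphatase gene CDC25A fell by 0.32 ± 0.06 (adjusted p = 0.028) and the transcription factor gene E2F2 fell by 0.29 ± 0.04 (adjusted p = 0.013) on the same scale. CCND1 passed except without EV replicate 2 (adjusted p = 0.051). E2F2 was lost without any 1 EV library (adjusted p = 0.063, 0.088 and 0.082 without replicates 1, 2 and 3), and CDC25A without any 1 EV library (0.11, 0.13 and 0.14) or without miR-424 replicate 1 (0.072).

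The partners of the IGF2BP proteins and the m6A machinery, 16 tested genes, held 0 that rose and 0 that fell in limma, with 0 at an unadjusted p under 0.05. The median log2 change was -0.011. The cold-shock protein gene YBX1 was at 708 ± 27.8 FPKM in miR-424 cells and 674 ± 3.17 FPKM in EV cells, and the poly(A)-binding protein gene PABPC1 at 714 ± 43.2 FPKM in miR-424 cells and 700 ± 10.4 FPKM in EV cells (SD, n = 3 each). Without miR-424 replicate 3, 3 of these genes rose, among them PABPC1 (log2 change 0.077, adjusted p = 0.017).

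Of 16 tested mRNAs reported to be bound by IGF2BP proteins, 1 rose and 3 fell, beside 1.24% and 6.32% of all tested loci, with a median log2 change of -0.094. Leaving out miR-424 replicate 3, 4 rose and 8 fell, beside 14.9% and 22.2% of all tested loci. MARCKSL1, an actin-regulating protein gene, was at 55.7 ± 2.11 FPKM in miR-424 cells and 45.2 ± 0.540 FPKM in EV cells (SD, n = 3 each), a log2 change of 0.29 ± 0.04 (SE, limma adjusted p = 0.011). BTRC, which encodes a ubiquitin ligase subunit and whose mRNA IGF2BP1 is known to stabilize, was at 2.53 ± 0.103 FPKM in miR-424 cells and 3.74 ± 0.0739 FPKM in EV cells (log2 change -0.43 ± 0.04, adjusted p = 0.0047). BTRC kept its call under every alternative in which it was tested. Cyclin D3 (CCND3) was at 66.7 ± 1.19 FPKM in miR-424 cells and 82.9 ± 2.39 FPKM in EV cells (log2 change -0.31 ± 0.04, adjusted p = 0.0078), and CCND1, given above, is also in this list. The miR-424 matches of these mRNAs are not listed either, and the cause of their changes was not tested. MARCKSL1 was lost without EV replicate 1, 2 or 3 (adjusted p = 0.065, 0.078 and 0.078), as was CCND3 (0.058, 0.058 and 0.055). The growth factor gene IGF2, after which the family is named, lay between 0.055 and 0.0958 FPKM and was not tested.

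Of 9 tested genes reported to be regulated by HMGA proteins, 0 rose and 1 fell, beside 1.24% and 6.32% of all tested loci. The median log2 change was -0.14, with 4 at an unadjusted p under 0.05. Leaving out miR-424 replicate 3, 1 rose and 5 fell, beside 14.9% and 22.2% of all tested loci. The 1 that fell with all libraries was the insulin receptor gene INSR, at 1.001 ± 0.0594 FPKM in miR-424 cells and 1.38 ± 0.0240 FPKM in EV cells (SD, n = 3 each; log2 change -0.25 ± 0.04, limma adjusted p = 0.022). INSR was lost without EV replicate 1, 2 or 3 (adjusted p = 0.11, 0.12 and 0.10) and without miR-424 replicate 1 or 2 (0.053 and 0.071). PTGS2, the inducible cyclooxygenase gene, was too low to test and was named after its values were seen. It was at 0.214, 0.334 and 0.242 FPKM in the 3 miR-424 libraries, against 0.0788, 0.106 and 0.0789 FPKM in the 3 EV libraries, which do not overlap, as at 21.1% of loci of this level.

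The other high-mobility-group genes, which encode nucleosome-binding (HMGN) and DNA-bending (HMGB) chromatin proteins among others, held 0 that rose and 0 that fell among 12 tested in limma, with 0 at an unadjusted p under 0.05. The median log2 change was -0.058. HMGB1 was at 323 ± 51.3 FPKM in miR-424 cells and 359 ± 10.8 FPKM in EV cells, and HMGN2 at 285 ± 13.8 FPKM in miR-424 cells and 291 ± 3.07 FPKM in EV cells (SD, n = 3 each). In miR-424 replicate 3 the median of this list lay 0.29 below the EV mean, while in replicates 1 and 2 it lay 0.0087 and 0.0052 above it. Without replicate 3, 2 of the 12 rose.

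Other oncofetal genes gave 4 tested loci, with 0 past the threshold in limma and 3 at an unadjusted p under 0.05. TPBG, the oncofetal trophoblast glycoprotein gene, was at 19.3 ± 0.432 FPKM in miR-424 cells and 17.0 ± 0.505 FPKM in EV cells (SD, n = 3 each; adjusted p = 0.053, and 0.0035 without miR-424 replicate 3). The imprinted gene PEG10 was at 33.9 ± 2.64 FPKM in miR-424 cells and 38.3 ± 1.02 FPKM in EV cells (adjusted p = 0.15, and 0.019 without miR-424 replicate 3). Without that replicate, 16 loci over the 8 lists rose and 21 fell, where 14.9% and 22.2% of all tested loci did.

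**Figure D5:**
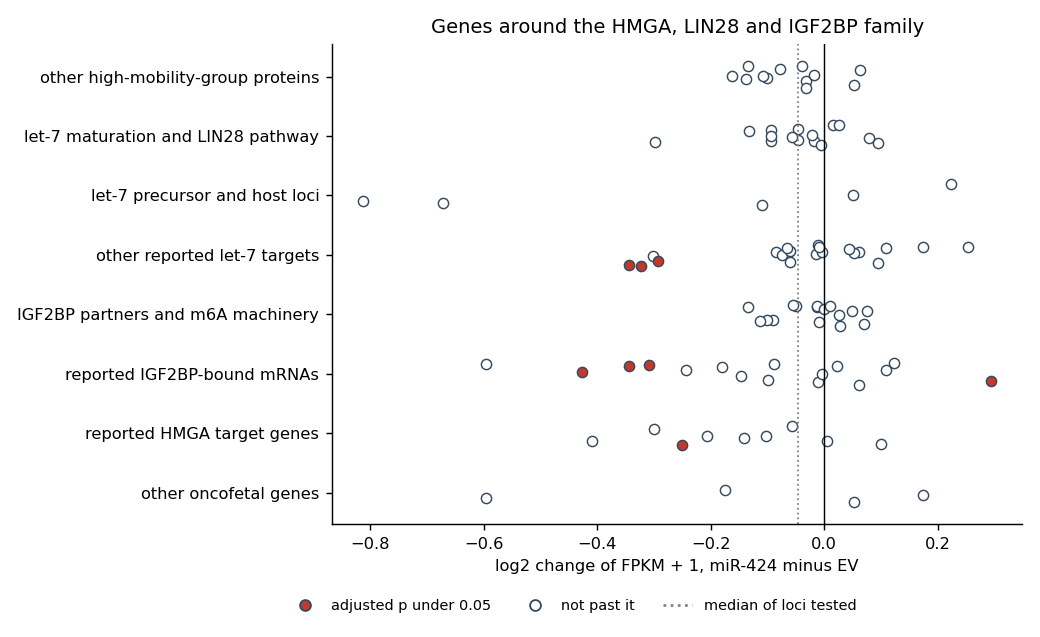
Log2 change (miR-424 minus EV, log2(FPKM + 1)) of each tested gene in 8 lists around the 6 genes, 1 row per list and 1 point per gene. Filled points are past the adjusted p threshold of 0.05 in limma, and the dotted line is the median of all tested loci, -0.047.

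Loci can also be sorted by the matches shown above. The median log2 change of the 1079 loci with a let-7 match was -0.040, and that of the 9408 without one was -0.046. Of the loci with a let-7 match 2.13% rose and 6.39% fell, against 1.201% and 6.57% of those without. The median 3' UTR was 2826 nt with a let-7 match and 1118 nt without one, and the part of this length was not tested. Of the 2512 loci with a miR-424 match 10.0% fell and 0.955% rose, against 5.45% and 1.404% of the 7975 without one, and their median 3' UTR was longer, 2519 nt against 957 nt. HMGA2 carries both kinds of match and is itself counted among the loci that rose with either. Among the 436 loci that carry both, 4 rose, HMGA2 being 1 of them, and 41 fell, with a median log2 change of -0.051. HIC2 and SMC1A, with as many let-7 matches as HMGA2, had log2 changes of 0.044 ± 0.054 and 0.012 ± 0.047 (SE).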

How the data were processed

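RNA sequencing libraries of 3 miR-424 and 3 EV samples of MCF12A cells were given by the authors as 1 deposited table of FPKM values. Per the submitters' processing notes the tools were TopHat 1.4.1, Cufflinks 1.3.0 and Cuffdiff, with GRCh37 and hg19 as builds, and no role or order is stated. The sources used here state no depth, scaling between libraries or use of strand. Depth is thus unknown, no counting interval or limit of detection can be given, and precision is set by the number of samples. The FPKM of a library summed to at least 409776 and at most 424564. Groups and replicate numbers came from the sample titles.

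Values were taken as log2(FPKM + 1), and the 11574 loci that averaged 1 FPKM or more were compared by limma 3.58.1 (R 4.3.3), using a trend in the prior variance, two-sided, with Benjamini-Hochberg adjustment over all tested loci and a threshold of 0.05. Because of the added 1, differences of low genes are understated. Permuting 3 and 3 samples exactly gives no p under 0.1, so this was not done. The fit was run on simulated data with independent noise, spreads shuffled among loci and the same spread in both groups. Such data hold no deviating library, so they cannot show how the fit handles one like miR-424 replicate 3.

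The members and the lists were chosen with earlier results of these data known. Named genes are the 6 members, up to 4 genes past the threshold in each list or else the 2 most abundant tested genes, the 3 loci most like each expressed member, and the locus of the construct. Genes outside this rule were named after their values were seen. Some list members are counted without being named. Of the tested loci 96.5% were matched to a GENCODE 29 transcript, and 90.6% had a 3' UTR of at least 30 nt. Alternatives were another pseudocount (0.1), filters (at least 5 FPKM, none), scalings, removal of a GC trend (mgcv 1.9.3), array weights, no variance trend, a replicate block, and leaving out each library. The text tests no cause for any difference.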

Additional observations from a re-analysis of the deposited data

How the results depend on the processing

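The log2 change of HMGA2 was between 0.66 and 0.84 under every alternative run. Of the tested members, 1 was called higher, 3 with array weights (which gave miR-424 replicate 3 a weight of 0.070), and 0 to 3 when 1 library was left out, with 0 to 0 called lower. Over all loci 144 were higher and 731 lower. Scaling by median of ratios gave 344 and 438, quantile normalization gave 319 and 447, and array weights gave 1605 and 2699. With the GC trend removed 230 were higher, and at a mean of at least 5 FPKM 468 were lower. Leaving out 1 library gave 31 to 1728 higher and 77 to 2574 lower. Of the calls 16.5% were higher, against 44.0% after median-of-ratios scaling and 41.6% after quantile normalization. Among the list genes 1 was higher and 6 lower. Higher counts were 2 with no filter, 4 with either scaling, 3 with the GC trend removed and 15 with array weights, and lower counts were 3 at a mean of at least 5 FPKM, 14 with the GC trend removed and 21 with array weights. Leaving out 1 library gave 0 to 16 higher and 1 to 21 lower. The cause of these shifts was not tested. The log2 change of HMGN2 turned positive under median-of-ratios scaling (0.037), quantile normalization (0.027) and array weights (0.0044), and that of KHSRP under array weights (0.034). With 1 library left out it ran from -0.053 to 0.0090 for HMGN2, from -0.17 to 0.044 for KHSRP and from -0.00073 to 0.077 for PABPC1, the first pair turning positive without miR-424 replicate 3 and PABPC1 negative without miR-424 replicate 1.

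The labels do not say whether the replicate numbers pair the samples. Same-numbered deviations correlated at 0.051, 0.15 and 0.13, and the other pairs at -0.19 to 0.061. Each miR-424 library correlated best with the EV library of its number, while EV replicate 1 correlated best with miR-424 replicate 2 (0.061). These weak values do not settle whether the samples are paired, and the main fit treats them as unpaired. With the replicate number as a block, 79 loci were higher and 270 lower, and the list genes gave 1 higher and 3 lower. E2F2 (adjusted p = 0.057), CDC25A (0.071) and INSR (0.071) were those lost under the block.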
